A study of Mus musculus with 6 samples.

Results

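The 48 genes described here encode collagens, laminins, nidogens, proteoglycans and other extracellular matrix proteins, together with markers of mesenchymal and mural cells, and were measured in cortical thymic epithelial cells (cTECs) of mice with and without Psmb11. They were chosen by gene symbol, and each of the 48 symbols matched 1 of the 50600 gene identifiers in the deposited tables. Psmb11 encodes a catalytic proteasome subunit that is made in cTECs. The KO group was 3 libraries of primary cTECs from the thymus of B6.B6CB-Psmb11tm1Smta mice labelled Psmb11-/-, and the WT group was 3 libraries from mice of the same strain name labelled Psmb11+/+, all aged 8 to 10 weeks and untreated as far as the labels say. Replicates carry the letters A, B and C. The labels do not say whether libraries of 1 genotype are from different mice or how the cells were sorted, so p-values measure the spread between these samples, which may be technical. In bulk RNA, a change in the number of cells of a type and a change in RNA per cell cannot be told apart.

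Extracellular matrix takes 2 main forms. Interstitial matrix, made mostly by fibroblasts and other mesenchymal cells, is built from fibrillar collagens with collagen VI, small leucine-rich proteoglycans and elastic fibres. Basement membranes are thin sheets of laminin, collagen IV, nidogen and perlecan that lie under epithelia and around vessels, and epithelial and endothelial cells make much of them themselves. In the thymus, basement membranes and a fibroblast-rich capsule, septa and perivascular space surround the epithelial network.

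Each library held 34265035 to 39224292 gene counts, and the 48 genes took 1.27% to 1.36% of them in KO and 1.17% to 1.21% in WT. Psmb11 itself was counted 67, 36 and 41 times in the KO libraries A to C and 8293, 9297 and 10027 times in WT, as labelled. All 13 markers of cortical epithelium had a mean of at least 10 CPM (gene counts scaled to a common library size with TMM factors) in KO, WT or both. Cortical markers were thus detected, but 8 of 10 medullary markers also reached this level, so it does not set cortical cells apart. Of 16938 genes tested between the genotypes (edgeR quasi-likelihood), 3899 passed 0.05 after Benjamini-Hochberg adjustment and are termed called here, which is 23% of all genes, with 12.3% called higher and 10.7% called lower in KO. In 39.3% of all genes the KO and WT libraries held CPM ranges without overlap.

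Matrix and mesenchymal genes were mostly higher in KO. Of the 48, Mfap5 was too low to test, 27 rose, 2 fell and 18 were not called. These 27 of 47 stand beside 12.3% of all genes called higher, and the 2 of 47 (Tnc and Fbln5) beside 10.7% called lower. KO libraries were all above WT for 27 of the 47 genes, beside 3254 of all 16938 genes tested. They were all below WT for 1 gene, beside 3396 of all genes tested. The median log2 fold change, KO over WT, was 0.38 over the 47 genes, with 42 positive and 5 negative, and -0.00 over all genes tested. The genes that rose were spread unevenly over the roles: all 12 tested fibrillar collagens, collagen VI and XIV chains and small leucine-rich proteoglycans rose, while 6 of 14 basement membrane collagens, laminins, nidogens and perlecan did. The shares over all genes, 12.3% higher and 10.7% lower, also stand beside the counts of each role below.

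**Figure D1:**
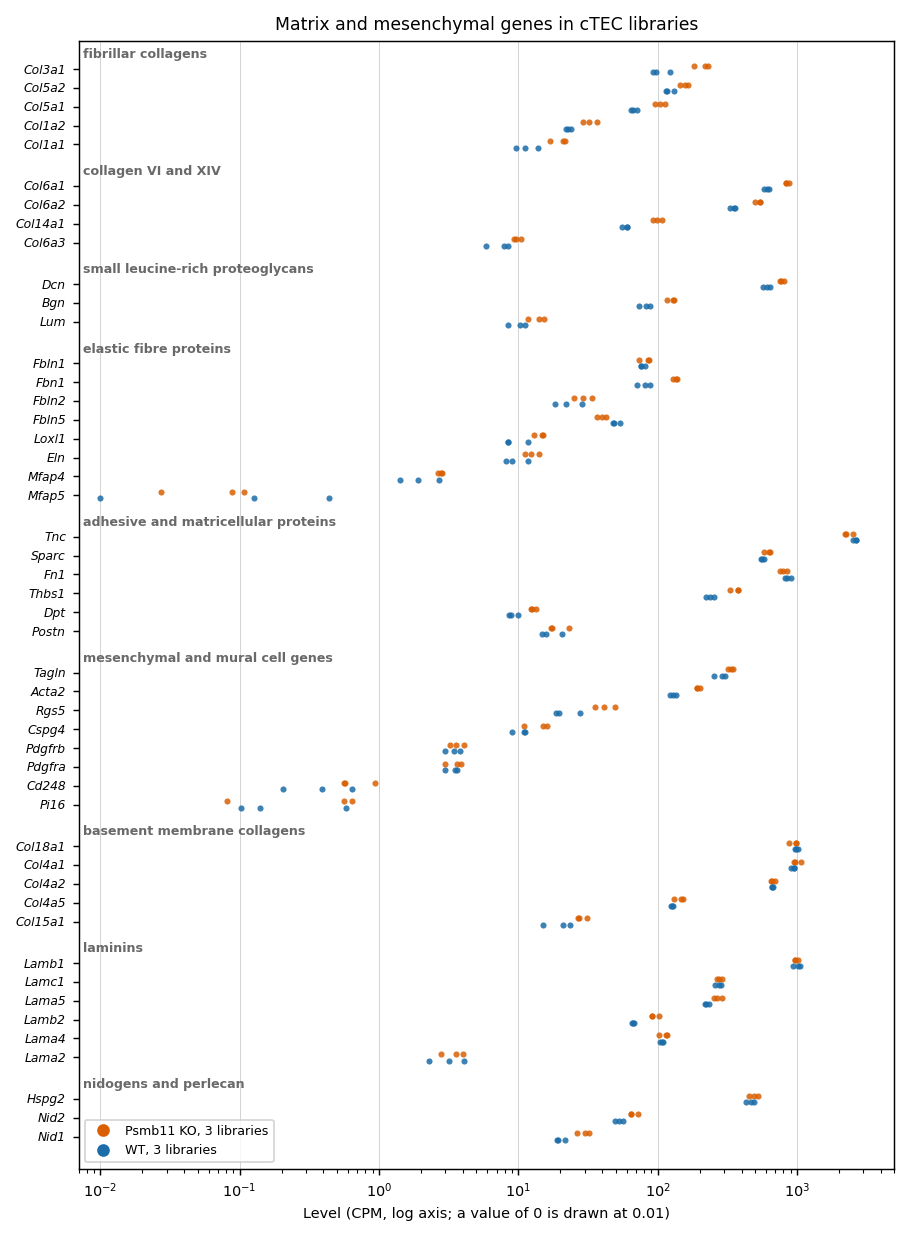
Level of each of the 48 genes in each library, in CPM on a log axis, grouped by role, with KO libraries in orange and WT libraries in blue. Levels run from under 1 CPM for Mfap5, Pi16 and Cd248 to between 2218 and 2666 CPM for Tnc, and the KO points lie to the right of the WT points in all 5 fibrillar collagens.

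Fibrillar collagens form the tensile fibres of interstitial matrix, and all 5 measured genes rose, with a median log2 fold change of 0.63. Col3a1 (ENSMUSG00000026043.18, chromosome 1, 45311538 to 45349706, plus strand, GRCm38) encodes the chain of collagen III, the fibrillar collagen of reticular fibres. It read 183, 219 and 228 CPM in KO against 96.8, 93.0 and 122 in WT, each for replicates A, B and C, an order kept for every gene below. Every KO library was above every WT library, and the log2 fold change was 1.01 ± 0.10 (SE; edgeR, adjusted p = 2.56e-05), the largest of the 29 called genes. Col1a1 and Col1a2 encode the chains of collagen I, the main fibrillar collagen of connective tissue. Col1a1 read 17.03, 21.7 and 20.8 CPM in KO against 9.67, 11.1 and 13.8 in WT, a log2 fold change of 0.77 ± 0.12 (edgeR, adjusted p = 0.000815). Col1a2 read 29.1, 36.9 and 32.2 CPM in KO against 22.1, 23.8 and 22.7 in WT (log2 fold change 0.52 ± 0.08; edgeR, adjusted p = 0.000536). Neither collagen I gene overlapped between the genotypes. Collagen V, which nucleates collagen I fibrils, is encoded by Col5a1 and Col5a2. Col5a1 read 95.01, 104 and 113 CPM in KO against 64.8, 66.6 and 70.8 in WT, a log2 fold change of 0.63 ± 0.06 (edgeR, adjusted p = 1.96e-05). Col5a2 lies next to Col3a1 on chromosome 1, on the minus strand at 45374321 to 45503282, with 24614 bases between the genes. It read 144, 158 and 165 CPM in KO against 131, 116 and 116 in WT, a log2 fold change of 0.37 ± 0.06 (edgeR, adjusted p = 0.000709), so it rose with its neighbour but by less. On TPM, the deposited abundance scaled for gene length, limma on log2(TPM + 1) did not call Col1a1 (adjusted p = 0.076).

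The promoters of 5 called genes are shown to set the genes with the largest rises beside 1 that fell. They are the 4 largest rises with a promoter window free of annotated exons, and Fbln5, the larger of the 2 falls. Each is the 250 bases before the RefSeq start, 5′ to 3′ on the gene's strand, from the RefSeq promoter table (GRCm38.p6), with matches to 6 motifs in capitals. The motifs were searched on both strands: CCAAT, the GC box GGGCGG, the TATA box TATAAA, the AP-1 site TGANTCA, the SMAD box GTCTG and the CArG box of serum response factor, and matches of 1 motif may overlap.
Col3a1, chr1:45311288-45311537, plus strand: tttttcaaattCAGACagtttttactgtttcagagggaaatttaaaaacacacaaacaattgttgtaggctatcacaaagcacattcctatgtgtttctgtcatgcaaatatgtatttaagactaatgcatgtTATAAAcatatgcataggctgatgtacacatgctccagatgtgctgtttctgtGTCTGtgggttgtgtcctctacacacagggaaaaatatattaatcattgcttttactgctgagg
Rgs5, chr1:169655251-169655500, plus strand: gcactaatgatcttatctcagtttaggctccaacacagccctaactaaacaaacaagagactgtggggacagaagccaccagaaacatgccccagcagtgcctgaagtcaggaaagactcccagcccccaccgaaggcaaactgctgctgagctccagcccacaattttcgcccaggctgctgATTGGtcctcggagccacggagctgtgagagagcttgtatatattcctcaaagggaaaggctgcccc
Col5a1, chr2:27886175-27886424, plus strand: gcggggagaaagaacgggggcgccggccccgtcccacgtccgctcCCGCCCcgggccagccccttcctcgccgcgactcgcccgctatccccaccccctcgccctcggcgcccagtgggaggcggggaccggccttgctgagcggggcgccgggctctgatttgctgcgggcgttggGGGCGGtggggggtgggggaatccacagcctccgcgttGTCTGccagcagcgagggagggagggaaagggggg
Bgn, chrX:73483351-73483600, plus strand: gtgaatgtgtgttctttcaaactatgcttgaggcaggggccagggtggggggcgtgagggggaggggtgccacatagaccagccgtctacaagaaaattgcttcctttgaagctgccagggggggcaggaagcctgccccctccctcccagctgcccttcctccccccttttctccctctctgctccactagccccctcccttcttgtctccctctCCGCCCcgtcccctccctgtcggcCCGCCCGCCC
Fbln5, chr12:101819120-101819369, minus strand: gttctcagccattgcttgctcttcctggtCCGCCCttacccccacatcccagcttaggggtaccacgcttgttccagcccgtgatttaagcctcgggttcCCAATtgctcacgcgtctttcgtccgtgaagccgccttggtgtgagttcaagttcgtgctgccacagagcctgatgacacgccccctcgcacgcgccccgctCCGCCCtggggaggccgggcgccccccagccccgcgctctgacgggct
The Col3a1 window holds TATAAA starting 117 bases before the start and a SMAD box 239 and 64 bases before it. The Rgs5 window holds 1 match, a CCAAT box on the minus strand 67 bases before the start. Col5a1 has GC boxes 205 and 73 bases before the start and a SMAD box 35 bases before it. Bgn has GC boxes only, 34, 10 and 6 bases before the start, the last 2 overlapping. Fbln5 has GC boxes 221 and 48 bases before the start and a CCAAT box 150 bases before it, so the gene that fell shares both motif kinds with genes that rose. Another RefSeq window of Fbln5, which overlaps an annotated exon of the gene and is not shown, holds SMAD boxes. RefSeq windows were found for 31 of the 48 genes. The SMAD box was in 20 of the 31 (45.8% of 27025 genes in the table), the GC box in 17 (35.4%), CCAAT in 10 (37.5%) and TATAAA in 3 (14.3%). The AP-1 site was in 1, Col6a1 (7.82% of genes), and the CArG box in 1, Lama2 (1.62%). These matches describe letters in short windows and are not evidence of binding.

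Collagen VI forms beaded microfibrils that link cells to the interstitial matrix, and collagen XIV binds to the surface of collagen fibrils. All 4 of their measured genes rose, with a median log2 fold change of 0.54. Col6a1 (ENSMUSG00000001119.7) read 829, 830.5 and 876 CPM in KO against 628, 576 and 605 in WT, a log2 fold change of 0.49 ± 0.04 (edgeR, adjusted p = 9.26e-06). Col6a2 (ENSMUSG00000020241.13) read 498, 539 and 547 CPM in KO against 355, 328 and 361 in WT, a log2 fold change of 0.60 ± 0.05 (edgeR, adjusted p = 5.64e-06). The 2 genes are neighbours on the minus strand of chromosome 10 (Col6a1 at 76708792 to 76726168, Col6a2 at 76595762 to 76623630, GRCm38), and neither overlapped between genotypes. Col14a1 read 98.8, 107 and 92.2 CPM in KO against 55.9, 60.4 and 60.4 in WT, a log2 fold change of 0.76 ± 0.05 (edgeR, adjusted p = 4.32e-06). Col6a3 encodes the alpha3 chain of collagen VI and had far lower levels, 9.78 ± 0.578 CPM in KO against 7.40 ± 1.36 in WT (n = 3 each, SD). Its log2 fold change of 0.40 ± 0.13 passed the threshold (edgeR, adjusted p = 0.0403), but not without KO replicate B (0.117), KO replicate C (0.0855), WT replicate A (0.132) or WT replicate B (0.0758), nor with the RSEM expected counts (0.0751). A value in parentheses after a left-out library or another setting, here and below, is the adjusted p of that fit.

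The chains of collagen VI were far from equal in level. On the per-length TPM scale, Col6a1 averaged 296 and Col6a2 178, and Col6a3 averaged 2.38. In the single libraries the TPM of Col6a1 was 98.1 to 171 times that of Col6a3, with the genotypes overlapping. The genes of 2 alternatives to the alpha3 chain were as low, with a mean TPM of 1.15 for Col6a5 and 0.547 for Col6a6. In collagen I the TPM of Col1a1 was 0.364 to 0.632 times that of Col1a2, although collagen I is made of more alpha1 than alpha2 chains.

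**Figure D2:**
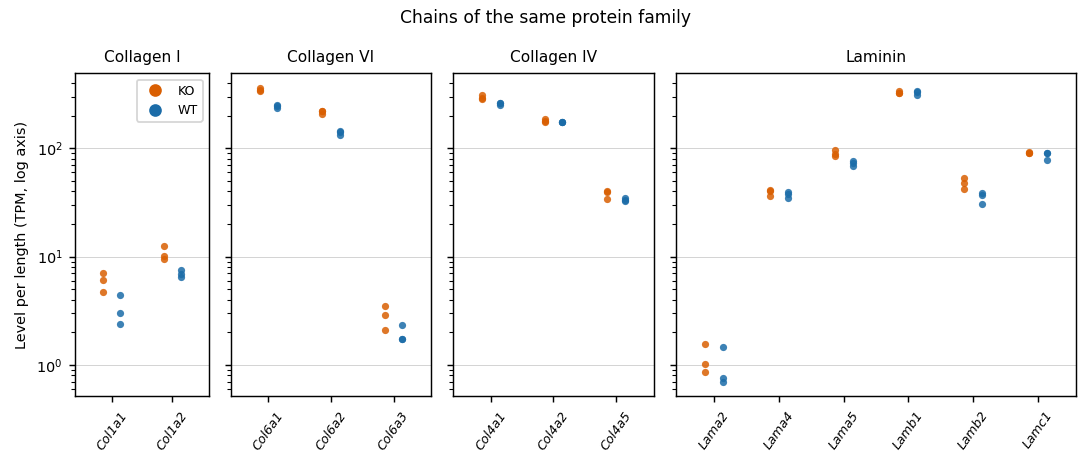
TPM of the chains of collagen I, collagen VI, collagen IV and the laminins in each library, on a log axis, with KO in orange and WT in blue. Col6a3 lies near 2 TPM, while Col6a1 and Col6a2 lie above 100 TPM in every library.

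Small leucine-rich proteoglycans bind collagen fibrils and control their diameter. All 3 measured genes rose, with a median log2 fold change of 0.46. Dcn encodes decorin (ENSMUSG00000019929.16, chromosome 10, 97479609 to 97518143, plus strand) and had the highest mean TPM of the 48 genes, 746. It read 749.6, 813 and 771 CPM in KO against 569, 609 and 642 in WT, a log2 fold change of 0.36 ± 0.05 (edgeR, adjusted p = 0.000201), with no overlap. Bgn, which encodes biglycan, read 117, 131 and 129 CPM in KO against 73.9, 82.2 and 88.7 in WT, a log2 fold change of 0.62 ± 0.06 (edgeR, adjusted p = 3.22e-05). Lum, the lumican gene 46984 bases downstream of Dcn, read 13.7 ± 1.89 CPM in KO against 9.93 ± 1.37 in WT (n = 3 each, SD). Its log2 fold change was 0.46 ± 0.12 (edgeR, adjusted p = 0.0157), which failed without KO replicate B (0.064), KO replicate C (0.0511) or WT replicate A (0.0629). On the TPM scale Dcn was 73.4 to 93.6 times Lum in the single libraries.

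Elastic fibres consist of elastin on a scaffold of fibrillin microfibrils, with fibulins and lysyl oxidases needed for their assembly. Of 8 genes 7 were tested: 2 rose, 1 fell and 4 were not called. Fbn1, which encodes fibrillin-1, read 129.7, 135 and 137 CPM in KO against 71.4, 80.6 and 88.9 in WT, a log2 fold change of 0.74 ± 0.06 (edgeR, adjusted p = 1.14e-05). Loxl1, an elastin crosslinking enzyme, read 14.3 ± 1.17 CPM in KO against 9.58 ± 1.92 in WT (n = 3 each, SD), a log2 fold change of 0.57 ± 0.13 (edgeR, adjusted p = 0.00608). Fbln5 (ENSMUSG00000021186.8), the fibulin that tethers elastin to microfibrils, went the other way: it read 42.6, 36.5 and 39.7 CPM in KO against 47.8, 48.6 and 53.8 in WT. All KO libraries were below all WT libraries, and the level fell by 0.34 on the log2 scale (SE 0.06; edgeR, adjusted p = 0.00197). Fbln1 had the highest TPM of the group and read 73.1, 85.7 and 86.4 CPM in KO against 75.4, 75.7 and 81.4 in WT, with overlap and no call (edgeR, adjusted p = 0.408); without KO replicate A it was called higher (0.0349). Eln, the elastin gene itself, read 12.6 ± 1.47 CPM in KO against 9.64 ± 1.83 in WT (n = 3 each, SD; edgeR, adjusted p = 0.0553), and was called without KO replicate B (0.0458), WT replicate C (0.0113) or the low count filter (0.00252). Fbln2, a fibulin of elastic fibres and basement membranes, had a log2 fold change of 0.34 ± 0.13 (edgeR, adjusted p = 0.0887) and was called without KO replicate A (0.0348), WT replicate C (0.00991) or the low count filter (6.96e-06). Mfap4, a microfibril-associated protein gene, stayed below 3 CPM in all 6 libraries (edgeR, adjusted p = 0.149) and was called only without WT replicate A (0.0362) among the libraries left out. Mfap5 had 0 to 15 counts per library, and its 0 in WT replicate B allows up to 3 counts. With limma on log2(TPM + 1) the calls of Loxl1 and Fbln5 were lost (adjusted p = 0.0559 and 0.0772).

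The adhesive and matricellular proteins connect cells to matrix or modulate that contact. Of 6 genes 3 rose, 1 fell and 2 were not called. Tnc, which encodes tenascin-C (ENSMUSG00000028364.15), was the most abundant of all 48 in CPM and read 2259, 2218 and 2519 CPM in KO against 2666, 2511 and 2632 in WT. KO replicate C overlapped the WT range, and the level fell by 0.16 on the log2 scale (SE 0.05; edgeR, adjusted p = 0.0292). That call was lost without KO replicate A (0.0613), KO replicate B (0.112), WT replicate A (0.105) or WT replicate C (0.0893). Thbs1, which encodes thrombospondin-1, read 375, 333 and 375 CPM in KO against 252, 221 and 237 in WT, a log2 fold change of 0.61 ± 0.06 (edgeR, adjusted p = 1.74e-05). Dpt, which encodes dermatopontin, a decorin-binding matrix protein, read 12.3, 12.5 and 13.4 CPM in KO against 8.54, 8.91 and 9.88 in WT, a log2 fold change of 0.48 ± 0.09 (edgeR, adjusted p = 0.00217). Thbs1 and Dpt showed no overlap. Sparc, a collagen-binding matricellular protein gene, read 584, 629 and 641 CPM in KO against 582, 552 and 563 in WT. Its log2 fold change of 0.13 ± 0.04 was called (edgeR, adjusted p = 0.0394), but not without KO replicate B (0.116), KO replicate C (0.12), WT replicate A (0.0535), WT replicate B (0.14) or WT replicate C (0.118). Fn1, which encodes fibronectin, had 800.0 ± 44.4 CPM in KO against 859 ± 41.4 in WT (n = 3 each, SD) and was not called (edgeR, adjusted p = 0.137). It was called lower without KO replicate C (0.0485) and without the low count filter (0.0359). Postn, which encodes periostin, had 19.3 ± 3.29 and 17.1 ± 3.18 CPM and was not called (edgeR, adjusted p = 0.391).

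Genes that mark mesenchymal cells and mural cells, the pericytes and smooth muscle cells of vessel walls made up 8 of the 48. Acta2, Rgs5, Tagln and Cspg4 rose, and Pdgfra, Pdgfrb, Cd248 and Pi16 were not called. Acta2, which encodes smooth muscle actin (ENSMUSG00000035783.8, chromosome 19, 34241090 to 34255590, minus strand), read 201, 191 and 193 CPM in KO against 135, 122 and 129 in WT. Its log2 fold change of 0.60 ± 0.04 had the smallest adjusted p of the 48 genes (edgeR, adjusted p = 3.64e-06). Rgs5, a pericyte marker that encodes a regulator of G-protein signalling, read 49.7, 41.2 and 35.7 CPM in KO against 18.8, 19.5 and 27.6 in WT, a log2 fold change of 0.94 ± 0.14 (edgeR, adjusted p = 0.000436). Tagln, which encodes the actin-binding protein transgelin, read 335, 322 and 349 CPM in KO against 289, 256 and 304 in WT, a log2 fold change of 0.24 ± 0.06 (edgeR, adjusted p = 0.00738). None of these 3 overlapped; with the unstranded counts the Tagln call was lost (0.198). Cspg4, which encodes the pericyte proteoglycan NG2, had 14.01 ± 2.75 CPM in KO against 10.4 ± 1.15 in WT (n = 3 each, SD), with overlap and a log2 fold change of 0.43 ± 0.14 (edgeR, adjusted p = 0.0363). Its call was lost without KO replicate B (0.108), KO replicate C (0.145), WT replicate A (0.134), WT replicate B (0.0663) or WT replicate C (0.0696). Pdgfra and Pdgfrb, the PDGF receptor genes that mark fibroblasts and mural cells, were low and close between genotypes. Pdgfra read 3.61, 2.96 and 3.86 CPM in KO against 2.99, 3.62 and 3.51 in WT (log2 fold change 0.04 ± 0.16; edgeR, adjusted p = 0.884). Pdgfrb read 4.10, 3.56 and 3.25 CPM in KO against 3.45, 2.98 and 3.79 in WT (log2 fold change 0.09 ± 0.15; edgeR, adjusted p = 0.72). At 103 to 152 counts per library for these receptor genes, a change of the size seen for Col3a1 lay beyond several SE of either estimate. The fibroblast markers Cd248 and Pi16 were below 1 CPM in all 6 libraries and were not called (edgeR, adjusted p = 0.223 and 0.547).

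**Figure D3:**
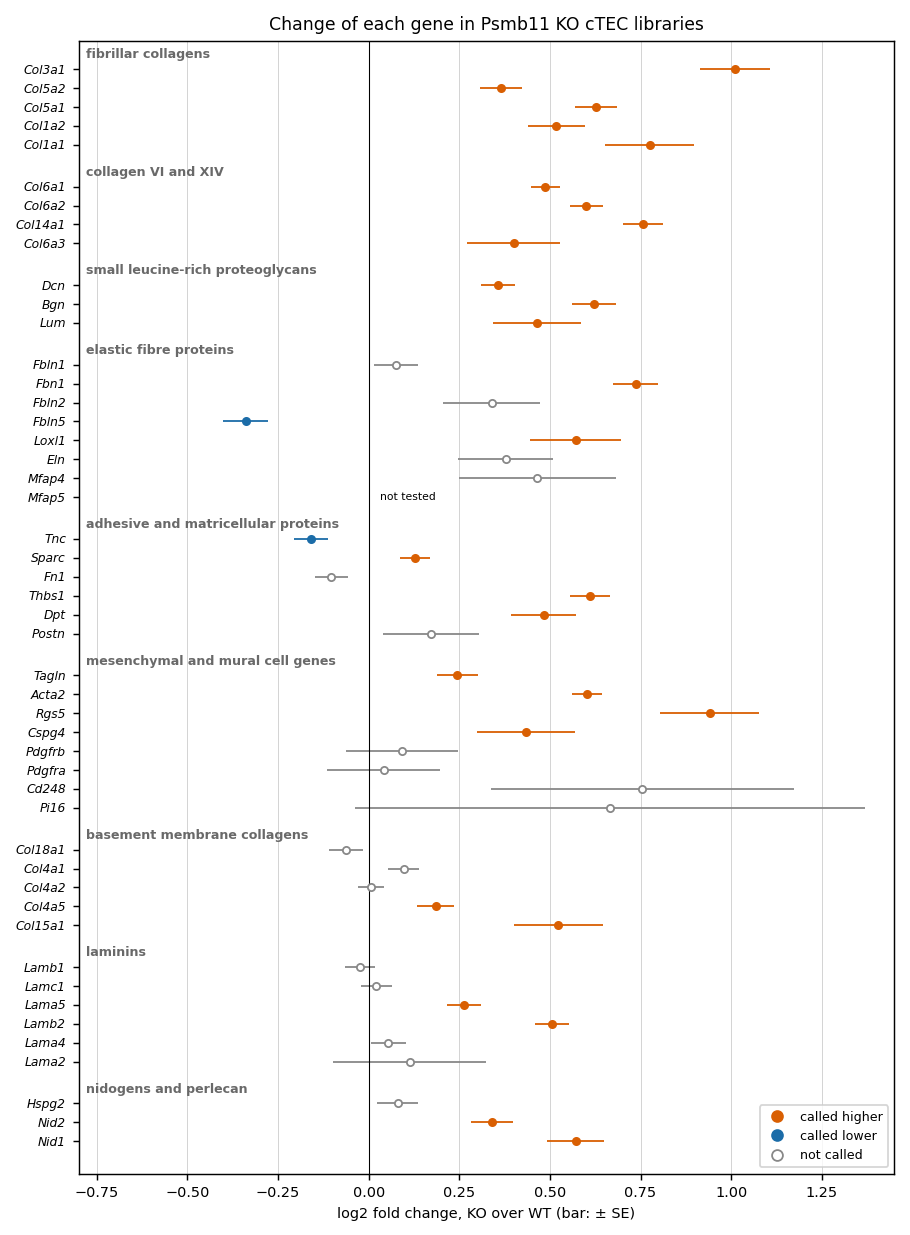
Log2 fold change of each gene, KO over WT, with its SE as a bar, grouped by role; filled orange points were called higher, filled blue points lower and open grey points not called. The fibrillar collagens and collagen VI and XIV lie between 0.37 and 1.01, while Col4a1, Col4a2, Col18a1, Lamb1 and Lamc1 lie within 0.10 of 0.

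Basement membrane collagens include collagen IV, the network of the membrane, and collagens XV and XVIII, which sit at its edge. Of 5 genes 2 rose and 3 were not called; their median log2 fold change was 0.10. Col4a1 and Col4a2, which encode the ubiquitous collagen IV chains, lie head to head on chromosome 8 and overlap by 22 bases. Col4a1 read 969.9, 955 and 1062 CPM in KO against 946, 901 and 947 in WT, a log2 fold change of 0.10 ± 0.04 (edgeR, adjusted p = 0.133), without overlap but not called. Col4a2 had 669 ± 24.8 CPM in KO against 666 ± 5.08 in WT (n = 3 each, SD; log2 fold change 0.01 ± 0.04; edgeR, adjusted p = 0.927). On the TPM scale Col4a1 was 1.64 to 1.67 times Col4a2 in KO and 1.43 to 1.51 times in WT, so this ratio did not overlap, and limma on log2(TPM + 1) called Col4a1 higher (adjusted p = 0.0322). Col18a1 read 874, 982 and 985 CPM in KO against 977, 1016 and 973 in WT and was not called (edgeR, adjusted p = 0.367). It lies on chromosome 10 some 326009 bases from Col6a1, which rose. Col15a1 rose from 19.8 ± 4.28 CPM in WT to 28.5 ± 2.32 CPM in KO (n = 3 each, SD; log2 fold change 0.52 ± 0.12; edgeR, adjusted p = 0.00873), and was not called in a fit with robust dispersions (0.0724). Col4a5, the chain of specialised epithelial membranes, had 144 ± 11.1 CPM in KO against 127 ± 3.02 in WT (log2 fold change 0.18 ± 0.05; edgeR, adjusted p = 0.0197). That call was lost without KO replicate B (0.0792), KO replicate C (0.0702), WT replicate A (0.0761) or WT replicate C (0.0682).

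Laminins are trimers of an alpha, a beta and a gamma chain that polymerise on the cell surface. Of 6 genes 2 rose and 4 were not called. Lama5, the alpha chain typical of adult epithelial membranes, read 254, 267 and 289.7 CPM in KO against 219, 233 and 224 in WT, a log2 fold change of 0.26 ± 0.05 (edgeR, adjusted p = 0.00163). Lamb2 read 90.8, 91.3 and 102 CPM in KO against 67.3, 66.7 and 65.9 in WT, a log2 fold change of 0.50 ± 0.05 (edgeR, adjusted p = 1.97e-05), and was not called by limma on log2(TPM + 1) (adjusted p = 0.066). Lama5 and Lamb2 showed no overlap between genotypes. The chains shared by the most common laminins were level. Lamb1 read 966, 1009 and 971 CPM in KO against 944, 1011 and 1043 in WT (edgeR, adjusted p = 0.718), and Lamc1 read 266, 277 and 289 CPM in KO against 260.1, 283 and 276 in WT (edgeR, adjusted p = 0.774). On the TPM scale Lamb1 was 6.20 to 8.13 times Lamb2 in KO and 8.78 to 10.1 times in WT, without overlap. Lama4, the alpha chain of vessel and mesenchymal membranes, had 111 ± 7.70 CPM in KO against 107 ± 2.86 in WT, and Lama2, the muscle alpha chain, 3.46 ± 0.639 and 3.19 ± 0.9004 CPM (n = 3 each, SD), and neither was called (edgeR, adjusted p = 0.467 and 0.752).

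Nidogens bridge the laminin and collagen IV networks, and perlecan is the main heparan sulfate proteoglycan of the membrane. Nid1 read 26.5, 30.4 and 32.3 CPM in KO against 19.0, 21.7 and 19.3 in WT, a log2 fold change of 0.57 ± 0.08 (edgeR, adjusted p = 0.000302). Nid2 read 64.7, 71.9 and 64.3 CPM in KO against 49.4, 56.6 and 52.8 in WT, a log2 fold change of 0.34 ± 0.06 (edgeR, adjusted p = 0.00112). Both nidogens were higher in every KO library than in any WT library. Hspg2, the perlecan gene, read 451, 491 and 526 CPM in KO against 433, 489 and 466 in WT, with overlap and no call (edgeR, adjusted p = 0.342).

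The 48 genes were also divided into 30 interstitial and mesenchymal genes and 18 genes of basement membranes or of wide expression. This split the adhesive and matricellular role: Dpt and Postn went to the first class and Tnc, Fn1, Sparc and Thbs1 to the second class. The class of a gene does not establish which cells made its RNA, and this was not tested. In the first class Dcn had a mean TPM of 746 and Tagln 452, while Pdgfra and Pdgfrb had 1.1 each. Of the 29 interstitial genes tested 19 rose and 1 fell, with a median log2 fold change of 0.48. Over all genes tested 12.3% were called higher and 10.7% lower. Their summed level was 3716, 3913 and 3960 CPM in KO against 2737, 2671 and 2909 in WT, a ratio of means of 1.39. Of the 18 basement membrane and widely made genes 8 rose and 1 fell, beside the same shares over all genes, with a median of 0.10. Their summed level was 8896, 9069 and 9697 CPM in KO against 9241, 9110.2 and 9271 in WT, a ratio of means of 1.001. Tnc alone held 17.1% to 18.4% of the summed CPM of all 48 genes in KO and 21.3% to 22.3% in WT. With each gene weighted equally, as a mean of log2 levels, this class read 7.77, 7.85 and 7.92 in KO against 7.62, 7.69 and 7.71 in WT, without overlap, and the interstitial class 4.94, 4.99 and 5.04 against 4.55, 4.51 and 4.66, also without overlap. The second class held 69.9% to 71.0% of the summed CPM of all 48 genes in KO and 76.1% to 77.3% in WT, without overlap. The difference between the classes was not tested.

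The classes also differed in level, with a median TPM of 12.7 for the interstitial genes and 89.7 for the others. By level alone, the 15 tested genes below 10 TPM had a median log2 fold change of 0.47 with 8 higher, the 19 from 10 to 100 TPM 0.37 with 13 higher and 1 lower, and the 13 at 100 TPM or more 0.10 with 6 higher and 1 lower. Among those 13 most abundant genes, Dcn, Col6a1, Col6a2, Acta2, Tagln and Sparc rose. Beside the counts by level, 12.3% of all genes tested were called higher and 10.7% lower. Shares over all genes within each level were not computed.

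**Figure D4:**
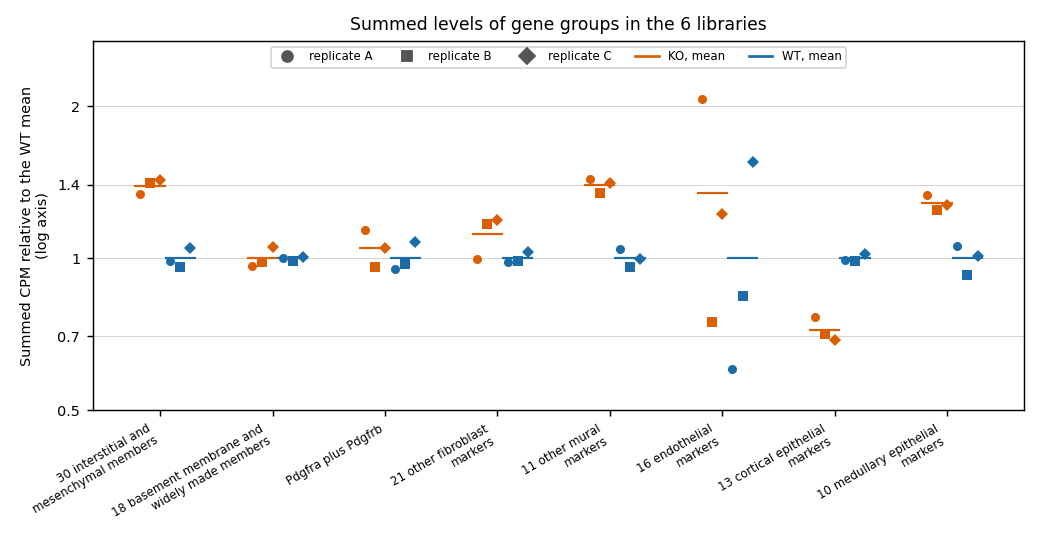
Summed CPM of gene groups in each library relative to the WT mean, on a log axis, with KO in orange, WT in blue, symbols for replicates A to C and lines for the means. The 30 interstitial and mesenchymal genes are higher in all KO libraries and the 18 basement membrane and widely made genes centre on 1, while the endothelial markers spread widely within each genotype. Prelp and Fmod make up most of the sum drawn for the 21 other fibroblast markers.

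Markers of other cell types, none of them among the 48, were read beside these changes. Of 21 further fibroblast markers 16 were tested and 6 rose, against 12.3% of all genes. All 16 had positive log2 fold changes, with a median of 0.43. KO libraries were all above WT for 11 of them, beside 3254 of the 16938 genes tested. The called ones were Ccl11, a chemokine (133 ± 4.995 CPM in KO against 63.7 ± 5.35 in WT), Prrx1 and Osr1, mesenchymal transcription factors (8.53 ± 0.214 and 3.95 ± 0.615 CPM; 6.24 ± 0.0244 and 2.71 ± 0.504 CPM), Tnxb (6.05 ± 1.09 and 2.69 ± 0.222 CPM; n = 3 each, SD), Htra3 and Ogn. Twist2, Tcf21, Sfrp2, Omd, Aspn and Meox2 were below 1 CPM on average, and Prelp and Fmod, at 765 and 507 CPM in KO against 762 and 444 in WT, were not called. The summed level of the 21 ran from 1506 to 1800.1 CPM in KO and from 1487 to 1555 CPM in WT. Prelp and Fmod made up most of that sum in every library. The mean log2 level of the 21, with each gene weighted equally, ran from 2.92 to 2.99 in KO and from 2.502 to 2.65 in WT. Of 11 further mural markers 8 were tested and 3 rose: Notch3, a mural receptor (107 ± 8.00 CPM in KO against 49.2 ± 4.70 in WT), Myh11 (235 ± 11.02 and 195 ± 13.9 CPM) and Des (6.999 ± 0.885 and 4.66 ± 0.0944 CPM; n = 3 each, SD). The summed level of the 11 was 341 to 363 CPM in KO and 243 to 264 CPM in WT. The pericyte markers Kcnj8, Higd1b, Ndufa4l2 and Cox4i2 were below 1 CPM on average, as were the mural markers Cnn1 and Trpc6. Of the 8 tested mural markers 5 had positive and 3 negative log2 fold changes, with a median of 0.23. Kcnj8 was lower in every KO library than in any WT library, at a low level (log2 fold change -0.92 ± 0.40), and was not called. The part of the called fibroblast and mural markers in the result was not tested. The other tested markers of both lists were not called. A fit with the fibroblast markers as a covariate called 1 gene in all and none of the 48 (Psmb11; edgeR, adjusted p = 1.22e-07). That covariate was their mean log2 level, which did not overlap between genotypes although the summed level and several single markers did, so it and genotype cannot be told apart.

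The PDGF receptor genes gave another reference, chosen after their values were seen. Pdgfra plus Pdgfrb summed to 6.51 to 7.71 CPM in KO and 6.45 to 7.29 CPM in WT. Per unit of that sum, Col3a1 was 1.95 times as high in KO as in WT, Rgs5 1.85, Col1a1 1.66, Col14a1 1.62 and Fbn1 1.60 times, each without overlap. Fbln5 was 0.754 times and Tnc 0.856 times the WT ratio, also without overlap. Col4a1, Col4a2, Lamb1, Lamc1, Hspg2 and Fn1 overlapped on this scale, with ratios between 0.888 and 1.02. Since the sum differed little between genotypes (ratio of means 1.05), these ratios stay close to the fold changes above. The genes counted next were selected by their calls in the same libraries, so staying above WT is no separate support. A share over all genes was not computed on this scale. Of the 19 interstitial and mesenchymal genes called higher, 15 stayed above WT without overlap, while Col5a2 (1.23), Tagln (1.13), Lum (1.33) and Cspg4 (1.31) overlapped. Of the 8 basement membrane and widely made genes called higher, Nid1 (1.42), Lamb2 (1.36), Col15a1 (1.39) and Thbs1 (1.453) stayed above WT, and Col4a5, Sparc, Nid2 and Lama5 overlapped. On the TPM scale Dcn was 524 to 993 times Pdgfra in the single libraries.

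Endothelial markers, which mark another maker of basement membrane, varied more between libraries than between genotypes. The 16 markers summed to 87.5, 31.6 and 51.9 CPM in KO against 25.5, 35.6 and 65.8 in WT, a 2.77-fold span within KO and a 2.58-fold span within WT. The summed basement membrane and widely made genes spanned 1.09-fold and 1.02-fold in the same libraries. Of 15 markers tested 1 rose, Flt1 (edgeR, adjusted p = 0.0196), and not without KO replicate A (0.0776), WT replicate A (0.0755) or WT replicate B (0.0777), while 3 were called without WT replicate C. With the endothelial markers as a covariate 28 of the 29 calls remained, Col6a3 being lost (0.0669). Of 12 macrophage and dendritic cell markers tested 6 rose, among them Lyz2 (24.8 ± 4.85 CPM in KO against 10.2 ± 0.434 in WT; n = 3 each, SD), and the whole list of 14 summed to 50.5 to 59.4 CPM in KO and 29.6 to 31.7 CPM in WT. The 6 became 3 without KO replicate A and at most 5 without any other library, and 2 with limma on log2(TPM + 1). With a mean of at least 5 CPM only Lyz2 and Mpeg1 of the list were high enough to test, and both were called higher. The 2 most abundant of 13 tested thymocyte markers, Lck (11.5 ± 2.99 CPM in KO against 10.1 ± 0.865 in WT) and Rag1 (10.3 ± 3.81 against 9.61 ± 1.84; n = 3 each, SD), were not called (edgeR, adjusted p = 0.423 and 0.794); 2 of the list were called higher without KO replicate B or without KO replicate C. Among epithelial genes 11 of 13 cortical markers fell and 1, Epcam, rose, though not without WT replicate B (summed 9589 to 10637 CPM in KO, 13767 to 14172 CPM in WT), and 9 of 10 medullary markers rose (5379 to 5765 CPM in KO, 4003 to 4573 CPM in WT). Among the medullary markers Krt5, a keratin of basal epithelium, read 3282, 3167 and 3222 CPM in KO against 2632, 2335 and 2475 in WT. Beside the counts of these lists, 12.3% of all genes were called higher and 10.7% lower. The part of these markers in the matrix changes was not tested.

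Genes around the 48 were read as 4 lists. Of 22 further collagens 18 were tested, 9 rose (12.3% of all genes did) and 9 were not called, around a median log2 fold change of 0.25. The leading call was Col17a1, the transmembrane collagen of epithelial hemidesmosomes, which read 148, 159 and 167 CPM in KO against 83.6, 86.6 and 82.3 in WT, a log2 fold change of 0.91 ± 0.05 (edgeR, adjusted p = 5.26e-07). Col27a1, a fibrillar collagen, had 54.1 ± 2.79 CPM in KO against 33.9 ± 0.540 in WT, and Col4a6, which pairs with Col4a5 in epithelial membranes, had 53.2 ± 6.19 and 36.3 ± 0.699 CPM (n = 3 each, SD; edgeR, adjusted p = 3.81e-06 and 0.000171). Col5a3, the alpha3 chain of collagen V, had 12.8 ± 1.15 and 7.52 ± 0.764 CPM (edgeR, adjusted p = 0.000297). Rises thus took in collagens of epithelial membranes as well as fibrillar ones.

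Of 23 enzymes and chaperones of collagen synthesis and crosslinking 8 rose (12.3% of all genes did), 2 fell (10.7% of all genes did) and 13 were not called, around a median log2 fold change of 0.11. Plod2, a collagen lysyl hydroxylase, had 63.8 ± 3.73 CPM in KO against 45.7 ± 1.23 in WT, and Pcolce, an enhancer of procollagen C-proteinase, had 36.1 ± 3.88 and 23.8 ± 1.44 CPM (n = 3 each, SD; edgeR, adjusted p = 3.90e-05 and 0.000169). The procollagen N-proteinase gene Adamts2 fell, from 45.01 ± 1.497 CPM in WT to 31.4 ± 2.07 CPM in KO, as did the prolyl hydroxylase subunit P4ha3, from 109 ± 1.62 to 83.8 ± 6.82 CPM (edgeR, adjusted p = 4.79e-05 and 0.000245).

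Of 19 matrix proteases and inhibitors tested 10 rose, 2 fell (Mmp14 and Adamts9) and 7 were not called, with a median of 0.17, beside 12.3% higher and 10.7% lower over all genes. The 2 falls were both lost without KO replicate B, KO replicate C or WT replicate C, and 1 of them was lost without WT replicate A or WT replicate B. The rises in this list numbered 7 to 9 when 1 library was left out, and 6 with limma on log2(TPM + 0.1). Timp1, an inhibitor of matrix metalloproteinases, had 13.02 ± 0.925 CPM in KO against 7.05 ± 0.308 in WT, and Mmp15, a membrane-type metalloproteinase, had 46.2 ± 6.46 and 30.8 ± 0.943 CPM (n = 3 each, SD; edgeR, adjusted p = 4.72e-05 and 0.000335). Adamts1 had 164 ± 14.5 and 119.6 ± 9.91 CPM and Mmp23 4.30 ± 0.363 and 1.95 ± 0.505 CPM (edgeR, adjusted p = 0.000418 and 0.000952). Of 24 matrix receptors 7 rose, 1 fell (Ddr1) and 16 were not called, with a median of 0.12, beside the same shares over all genes. The fall was lost without WT replicate C, and the rises numbered 5 to 9 when 1 library was left out. Itgb8, an integrin that activates latent TGF-beta, had 7.36 ± 0.361 CPM in KO against 3.88 ± 0.438 in WT, and Mrc2, a collagen uptake receptor, had 20.8 ± 1.15 and 13.02 ± 2.42 CPM (n = 3 each, SD; edgeR, adjusted p = 0.000242 and 0.000826). The laminin-binding integrin Itga6 had 919.9 ± 27.8 and 809.6 ± 14.5 CPM, a small rise on a high level, and the collagen-binding integrin Itga1 131 ± 7.14 and 115 ± 3.43 CPM (edgeR, adjusted p = 0.00252 and 0.00742).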

How the data were processed

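Polyadenylated RNA was extracted with TriZol and RNeasy and made into stranded libraries, per the labels' protocols. The submitters' processing notes name bcl2fastq 2.17, STAR 2.5.1b and RSEM 1.2.28 and the build GRCh38, a human build, while the identifiers are mouse Ensembl ones, so the build used is uncertain. Symbols and positions were taken from GENCODE M21 (GRCm38); 50376 of 50600 identifiers matched. The deposited tables give raw read counts of each gene by strand setting. The stranded column with most of the counts was used, because the other held 4.30% to 4.53% of the counts of both. Summary lines that name no gene were left out. The authors also deposited RSEM expected counts, which were rounded and used as an alternative, and deposited TPM values, used to compare levels between genes and as an alternative.

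Genes passing filterByExpr were compared with edgeR 4.0.16 in R 4.3.3 (TMM, quasi-likelihood, no block), adjusted by Benjamini-Hochberg over all genes tested. CPM are TMM-scaled, and the SE comes from the F statistic. The script was tested on simulated data. Values of each library are given for called genes among the 20 smallest adjusted p of the 48 and for the 2 of highest TPM in each role; of each other list up to 4 called genes by increasing p are named, or the 2 of highest CPM where none was called. Other genes are named as examples, chosen after their values were seen. The 48 genes, the lists and the rule were chosen with earlier results of these data known. Alternatives were RLE and upper quartile scaling, DESeq2 1.42.0, other low count filters, RSEM expected counts, limma 3.58.1 on log2 of TPM plus 1 or 0.1, counts without strand, the replicate letter as block, fibroblast and endothelial marker covariates, leaving out each library and, added after seeing the data, robust dispersions. The labels do not say that a replicate letter marks a shared batch, so the block is an alternative. Figures used matplotlib 3.10.9 in Python 3.11.15.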

Additional observations from a re-analysis of the deposited data

How the results depend on the processing

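The 29 calls were recomputed under 19 other settings. Leaving the fibroblast covariate aside, 17 of the 29 were kept under all 18 others: Col1a2, Col3a1, Col5a1, Col5a2, Col6a1, Col6a2, Col14a1, Dcn, Bgn, Dpt, Fbn1, Nid1, Nid2, Lama5, Acta2, Rgs5 and Thbs1. Leaving out 1 library gave 22 to 29 genes higher and 1 to 3 lower. A mean of at least 5 CPM left 1 lower, Fbln5. limma on log2(TPM + 1) called 1927 genes in all and 1857 with 0.1 in place of 1; each kept 18 of the 29 calls and left 0 lower, and Lamb1 was at 0.016 under both. With the replicate block, 3807 genes were called in all and all 29 calls held, with Fbln2 and Eln added; same-letter libraries correlated at -0.018, 0.095 and -0.039. Without the low count filter Fn1 (lower), Fbln2 and Eln were also called (adjusted p = 0.0359, 6.96e-06 and 0.00252), and Col4a2 was at -0.0028. Leaving out 1 library gave log2 fold changes of -0.026 to 0.025 for Col4a2, -0.074 to 0.34 for Lama2, -0.065 to 0.0056 for Lamb1, -0.014 to 0.051 for Lamc1, -0.040 to 0.15 for Pdgfra, -0.0035 to 0.17 for Pdgfrb, -0.028 to 0.35 for Lck and -0.22 to 0.32 for Rag1, none of them called. The endothelial covariate put Pdgfra at -0.022 and Rag1 at -0.061. The fibroblast covariate, which cannot be told apart from genotype, left 1 gene called in all, with 0 of the 48 higher and 0 lower. Signs changed there for Col1a1 (-0.51), Col6a3 (-0.73), Col4a1 (-0.024), Col4a2 (-0.061), Col4a5 (-0.045), Col15a1 (-1.001), Dcn (-0.026), Lum (-0.40), Bgn (-0.044), Fn1 (0.023), Postn (-0.69), Dpt (-0.058), Fbln1 (-0.35), Fbln2 (-1.33), Eln (-0.87), Hspg2 (-0.40), Lama2 (-2.11), Lama5 (-0.030), Lamc1 (-0.31), Pdgfra (-0.63), Cspg4 (-0.73), Loxl1 (-0.51), Mmp15 (-0.029) and Flt1 (-0.17). Counting limits the lowest genes, Cd248, Pi16 and Mfap5. The cause of the other changes was not tested.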
